A study of Mus musculus with 4 samples.

Results

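The 8 genes described here, Ndufb6, Ndufaf4, Ndufaf6, Ndufa4, Cox6c, Stoml2, Mrpl50 and Coq3, lie on nuclear chromosomes and encode proteins of the respiratory chain or of other parts of the mitochondrion. They were taken by symbol from count tables of 56748 genes, and all 8 were found with reads in every library. RNA-seq was run on lymph nodes of 4 mice, titled dLN, with 1 library per mouse. BrQ replicates 1 and 3 came from the group named for 2-bromo-1,4-naphthalenedione, a brominated naphthoquinone, and Vehicle replicates 1 and 3 from the group given its carrier. The series title names experimental autoimmune encephalomyelitis, a mouse model of multiple sclerosis, as the disease setting of the study. The labels used here give no strain, age, sex, dose or day of collection. The p-values below rest on the spread between the 2 mice of each group, with variance information shared across the rows tested. In a whole node, fewer cells of a type and less RNA per cell cannot be told apart.

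The respiratory chain moves electrons through complexes in the inner mitochondrial membrane and pumps protons that drive ATP synthesis. Its complexes I and IV are built from subunits of both genomes: the catalytic core proteins of complex IV and several membrane subunits of complex I are made from mitochondrial DNA, and the remaining subunits and the assembly factors are imported from the cytosol. Lymphocytes, the main cells of a lymph node, depend on mitochondria for activation and for memory. The question the files allow is how these nuclear transcripts differed between BrQ and Vehicle nodes, and how they stood beside the transcripts of the mitochondrial genome.

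The genes map to chromosomes 4, 6 and 15 of GRCm38 (mm10). On chromosome 4 lie Ndufaf6 (chr4:11051045-11076205), Coq3 (chr4:21879673-21912162), Ndufaf4 (chr4:24898083-24905001), Ndufb6 (chr4:40270591-40279421), Stoml2 (chr4:43027690-43031710) and Mrpl50 (chr4:49512596-49521093). Ndufa4 is at chr6:11900292-11907497 and Cox6c at chr15:35925886-35938246. Each is annotated as protein-coding.

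RefSeq promoter sequences (GRCm38.p6) were matched by symbol for 6 of the 8 genes: Ndufb6, Ndufaf4, Ndufa4, Stoml2, Mrpl50 and Coq3. The 250 bases upstream of each start were searched on both strands for 3 motifs known from promoters of nuclear mitochondrial genes. These were the NRF1 motif (GCGCA, any base, GCGC), the GABP motif CCGGAAGT and the YY1 motif AAGATGGCG, which were present in 3.78%, 2.91% and 0.61% of 32412 promoters. The motifs as spelled here do not overlap one another in these windows. Shown are the 2 promoters of the set that held a motif, Ndufaf4 (chr4:24897833-24898082, plus strand) and Stoml2 (chr4:43031385-43031634, minus strand), and that of Ndufa4 (chr6:11907451-11907700, minus strand), the gene whose values ran against the other 7. Each is written 5′ to 3′ with the motif in capitals.
Ndufaf4: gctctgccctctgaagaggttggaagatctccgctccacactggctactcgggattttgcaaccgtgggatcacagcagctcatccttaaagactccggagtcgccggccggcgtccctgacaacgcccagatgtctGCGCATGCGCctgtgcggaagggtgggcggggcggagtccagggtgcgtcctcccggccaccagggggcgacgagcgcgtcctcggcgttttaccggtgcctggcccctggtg
Stoml2: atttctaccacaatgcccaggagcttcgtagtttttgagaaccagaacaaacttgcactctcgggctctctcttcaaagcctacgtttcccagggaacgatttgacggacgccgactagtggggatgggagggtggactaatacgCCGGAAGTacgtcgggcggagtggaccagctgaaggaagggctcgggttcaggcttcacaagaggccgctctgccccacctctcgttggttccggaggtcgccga
Ndufa4: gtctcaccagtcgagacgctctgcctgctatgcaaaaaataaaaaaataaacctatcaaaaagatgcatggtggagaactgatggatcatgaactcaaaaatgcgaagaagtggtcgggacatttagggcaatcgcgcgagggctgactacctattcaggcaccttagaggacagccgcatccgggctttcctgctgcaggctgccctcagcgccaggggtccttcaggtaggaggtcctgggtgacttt
The NRF1 motif of Ndufaf4 lies 113 to 104 bases upstream of the RefSeq start, and the GABP motif of Stoml2 105 to 98 bases upstream of its own. The RefSeq start of Ndufaf4 is also the start of the gene span given above, while those of Stoml2 and Ndufa4 lie inside their spans. The whole Stoml2 window, with its motif, lies inside the span of that gene (chr4:43027690-43031710). Part of the Ndufa4 window lies inside the span of Ndufa4 (chr6:11900292-11907497). No window held the YY1 motif, which says only that these letters are not in it.

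Before the values, the names and the libraries were checked. Genes of respiratory-chain subunits are transcribed in nearly every cell, yet the median of 78 other such genes was 0.75 reads (mean over the libraries), and 17 of them reached 100. The 3 subunit genes described here, Ndufb6, Ndufa4 and Cox6c, had a median of 1792.75. Most other nuclear names therefore were not read as the genes they name, and rows of the whole table are called features below. Of 120 named coding genes within 1 Mb of any of the 8, 67 held at least 50 reads (55.8%), against 4732 of 19687 across the genome (24.0%). The share was highest around Ndufaf6 (11 of 13) and Ndufb6 (15 of 18), and lower around Stoml2 (22 of 48), Ndufaf4 (2 of 6) and Mrpl50 (3 of 13). Ndufa4 has only 2 such neighbours, 1 of them with reads. At 23.1% the Mrpl50 share was no higher than that of the genome, although 9 of its 20 nearest named coding genes held at least 50 reads. For Mrpl50, Ndufaf4 and Ndufa4 the neighbours therefore say little on whether the row holds its own reads. The stretches were chosen partly from these counts. Reads in genes numbered 6813832 to 7989226 per library, and 86.799% to 88.812% of read rows fell in no annotated gene interval. The mitochondrial chromosome took 15.8% and 12.1% of the reads in genes in BrQ, against 20.6% and 30.3% in Vehicle. Lymphocyte markers (Pax5, Cd72, Il7r, Sit1 and Tox) were present in all 4 libraries. Of other cell types, stromal Col1a2 had 89 to 166 reads and muscle Tpm2 19 to 44 per library, while rows named Lep (adipocytes), Ccl21a (stroma) and Cavin4 (muscle) were at 0. Whether these names hold their own reads was not tested.

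Levels are given as CPM, a gene's read count relative to the library's reads in genes, with library sizes scaled by the trimmed mean of M-values (TMM). To compare levels of different genes, CPM per kilobase of annotated exon is used. In BrQ nodes the order ran from Ndufa4 (197 ± 3.71 CPM per kb) through Ndufb6 (152 ± 14.8) and Cox6c (70.2 ± 3.85) to Stoml2 (50.8 ± 0.675) and Mrpl50 (31.3 ± 0.985; SD, n = 2). The 2 assembly factors and the coenzyme Q gene were lowest there: Ndufaf4 had 19.5 ± 0.178, Ndufaf6 14.7 ± 3.36 and Coq3 8.75 ± 2.76 CPM per kb. In Vehicle nodes Ndufb6 came first (193 ± 2.80 CPM per kb) and Ndufa4 second (157 ± 40.8), a gap within the SD of Ndufa4. The other 6 kept the same order in Vehicle nodes, at 96.2 ± 0.422 for Cox6c, 61.8 ± 2.78 for Stoml2 and 38.5 ± 0.940 for Mrpl50. Ndufaf4 followed at 31.3 ± 5.73, Ndufaf6 at 24.6 ± 0.160 and Coq3 at 12.5 ± 2.00 CPM per kb. Exon lengths count every annotated isoform, so a gene with long, rarely used exons would read low.

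In BrQ nodes 3 of the 8 genes fell, Ndufaf4, Ndufaf6 and Cox6c, and none rose, by edgeR's quasi-likelihood test with Benjamini-Hochberg adjustment over 10223 features at 0.05. The share called lower was 37.5% of the 8 genes, beside 22.2% of all features. Across all features 23.6% were called higher, and 45.7% in either direction. With 8 genes, chosen with earlier results known, the difference in shares was not tested. The BrQ values of 7 genes lay below both Vehicle values and those of Ndufa4 lay above them. Groups did not overlap for 76.1% of all features, with BrQ below in 36.2% and above in 39.9%. The median log2 fold change (BrQ over Vehicle) of the 8 was -0.40, beside 0.05 for all features.

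**Figure D1:**
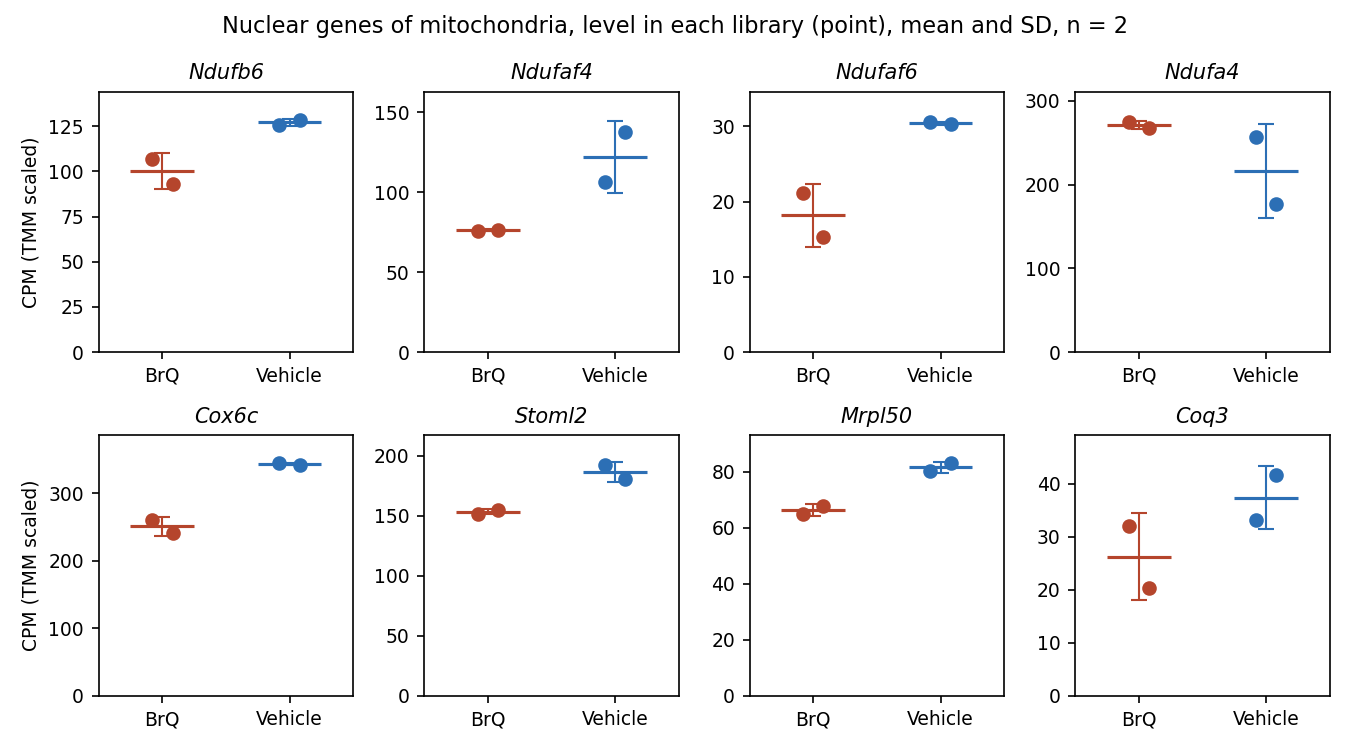
TMM-scaled CPM of each of the 8 genes in BrQ and Vehicle nodes, 1 point per library, with the mean (wide line) and SD (n = 2 each). Each panel has its own axis from 0. BrQ lies below Vehicle in 7 panels, and above it for Ndufa4, where the Vehicle libraries stand at 256 and 177 CPM.

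Complex I accepts electrons from NADH. Its assembly factor genes showed the lowest fold changes of the set, while the subunit gene did not pass the test. Ndufaf4 encodes an assembly factor that acts early in building the complex. It had 75.7 and 76.6 CPM in BrQ nodes, against 106 and 138 CPM in Vehicle nodes. The BrQ libraries were nearly equal and both lay below the lower Vehicle library. Its log2 fold change was -0.68 ± 0.17 (SE; adjusted p = 0.0101, edgeR), a level 0.624 times that of Vehicle. Leaving out BrQ 1, BrQ 3 or Vehicle 3 ended the call, and adjusted p ran from 0.00243 to 0.204 over 14 alternatives.

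Ndufaf6, a second assembly factor of complex I, was the lowest of the 3 genes of this complex in reads. It had 21.1 and 15.2 CPM in BrQ nodes (167 and 118 reads), against 30.5 and 30.2 CPM in Vehicle nodes (210 and 197 reads). Here the Vehicle libraries were close together and the BrQ libraries spread. The log2 fold change was -0.74 ± 0.23 (SE; adjusted p = 0.0249, edgeR), or 0.599 times the Vehicle level. The call was lost without BrQ 3, Vehicle 1 or Vehicle 3, with an adjusted p of 0.0196 to 0.255 over the alternatives.

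Ndufb6 encodes an accessory subunit in the membrane arm of complex I. It had 107 and 93.2 CPM in BrQ nodes, against 126 and 128 CPM in Vehicle nodes, without overlap. Its log2 fold change of -0.34 ± 0.15 (SE) did not pass the test (adjusted p = 0.0879, edgeR). Of its exon bases 39.0% are shared with Smim27 on the opposite strand, a row with 401.5 reads on average, and no source used here states the strand setting of the counting. Reads of that stretch cannot be told apart between the genes.

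Complex IV, cytochrome c oxidase, passes electrons to oxygen. Its 2 nuclear subunit genes in the set had fold changes of opposite sign, of which that of Cox6c passed the test. Cox6c encodes a small structural subunit and had the most reads of the 8. It had 260 and 241 CPM in BrQ nodes, against 344 and 342 CPM in Vehicle nodes, and both BrQ libraries lay well below the Vehicle pair. The log2 fold change was -0.45 ± 0.13 (SE; adjusted p = 0.0190, edgeR), or 0.730 times the Vehicle level. Leaving out either BrQ library ended the call, and adjusted p ran from 0.0126 to 0.716 over the alternatives. The near-identical copies Cox6c2 and Gm16399 held 0 reads, and 7.01% of the exon bases overlap Vps13b on the opposite strand.

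Ndufa4 is named for complex I, with which it was first purified, and is now placed in complex IV. It had 275 and 268 CPM in BrQ nodes, against 256 and 177 CPM in Vehicle nodes. Vehicle 1 lay close to the BrQ pair and Vehicle 3 far below it. The log2 fold change of 0.33 ± 0.18 (SE) did not pass the test (adjusted p = 0.158, edgeR). Without Vehicle 1 it was 0.60 and called higher, and without Vehicle 3 it was 0.07, so its size rests on Vehicle 3. Its reads stood at 2178 and 2076 in BrQ libraries and 1765 and 1152 in Vehicle libraries, and BrQ lay above Vehicle under each of the 4 scalings compared.

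The remaining 3 genes serve other parts of the organelle, and none passed the test. Stoml2 encodes a cardiolipin-binding scaffold of the inner membrane that organises respiratory complexes. It had 152 and 155 CPM in BrQ nodes, against 193 and 181 CPM in Vehicle nodes, with a log2 fold change of -0.28 ± 0.14 (SE; adjusted p = 0.118, edgeR). The groups were tight and did not overlap. Of 28 tested neighbours within 1 Mb of Stoml2, 19 were called lower in BrQ, with a median log2 fold change of -0.70. The part of that stretch in the Stoml2 value was not tested. An antisense row, Gm26643, covers 16.61% of its exon bases.

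Mrpl50 encodes a protein of the large subunit of the mitochondrial ribosome, which translates the transcripts of mitochondrial DNA. It had 64.8 and 67.7 CPM in BrQ nodes, against 80.1 and 82.9 CPM in Vehicle nodes. Both pairs were tight, and the log2 fold change was -0.30 ± 0.16 (SE; adjusted p = 0.143, edgeR). The RNAs of the same ribosome, mt-Rnr1 and mt-Rnr2, are encoded in the mitochondrion. They fell with log2 fold changes of -0.84 (adjusted p = 0.0412, edgeR) and -0.96 (adjusted p = 0.0144), although mt-Rnr1 overlapped between groups. The call of mt-Rnr1 was lost in 7 of 14 alternatives and that of mt-Rnr2 in 4, both without BrQ 3 and without Vehicle 3. Without Vehicle 3 the values were -0.21 for mt-Rnr1 and -0.43 for mt-Rnr2.

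Coq3 encodes the methyltransferase that acts in the synthesis of coenzyme Q, the electron carrier between complexes I and III. It had 32.1 and 20.4 CPM in BrQ nodes, against 33.1 and 41.6 CPM in Vehicle nodes. BrQ 1 nearly reached Vehicle 1, and BrQ 3 stood lowest. Its log2 fold change of -0.51 ± 0.25 (SE; adjusted p = 0.119, edgeR) did not pass the test and came with the largest error of the 8. It was -0.86 without BrQ 1 and -0.21 without BrQ 3, and -0.69 without Vehicle 1 and -0.35 without Vehicle 3. Its size thus depended on which library was left out, most of all in BrQ.

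The direction of the smaller changes depended on scaling. With library size alone the median of all features moved to 0.42 and that of the 8 genes to -0.03. Under that scaling Ndufb6, Stoml2 and Mrpl50 had values of 0.03, 0.08 and 0.07, and the 1 gene called was Ndufa4, higher in BrQ. There Ndufaf4 had -0.30, Ndufaf6 -0.37 and Cox6c -0.09, none past the threshold. With library sizes from all read rows Ndufaf4 was called lower and Ndufa4 higher, and with no filter on low counts none of the 8 was called by edgeR, with 3 at an unadjusted p under 0.05. The distance between the median of the 8 and the median of all features was -0.45 with TMM and with library size alone. Scaling moves all values nearly alike, so this distance could hardly change with it. It was -0.33 with no filter on low counts, and -0.52 to -0.33 with 1 library left out. Scaled to nuclear gene reads alone, BrQ lay below Vehicle for 6 genes, Coq3 overlapped and Ndufa4 lay above. The summed level of the 8 overlapped on that scale, at 1327.8 and 1212.2 CPM of nuclear reads in BrQ against 1385.4 and 1310.4 CPM in Vehicle libraries.

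**Figure D2:**
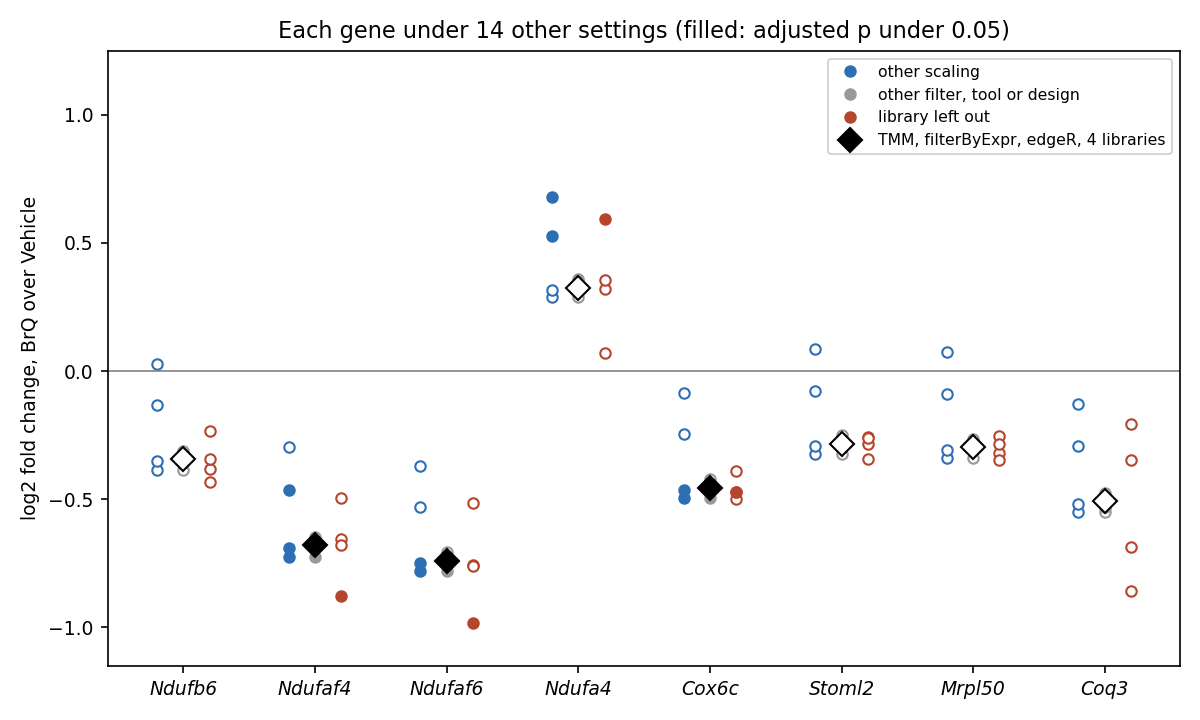
Log2 fold change (BrQ over Vehicle) of each gene with TMM scaling and all 4 libraries (diamond) and under 14 other settings, grouped as other scalings (left), other filters, tools or designs (middle) and 1 library left out (right). Filled symbols passed an adjusted p of 0.05. Ndufaf4, Ndufaf6, Cox6c and Coq3 stay below 0 and Ndufa4 above it, while Ndufb6, Stoml2 and Mrpl50 cross 0 with library size alone.

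With all 4 libraries, the fold changes of the 13 mitochondrially encoded protein genes lay below those of the 8 nuclear genes. Without Vehicle 3 that order broke for mt-Co1, at -0.74 beside -0.76 for Ndufaf6, and it held under the other 13 alternatives. All 13 mitochondrially encoded protein genes were lower in BrQ, with log2 fold changes of -3.67 to -1.13 and a median of -1.50. Without a filter on low counts 6 of the 13 were called, and without BrQ 3 the count was 9. Their summed level was 134336 and 103127 CPM in BrQ nodes, against 213803 and 360273 CPM in Vehicle nodes. The Vehicle libraries differed from each other by more than the BrQ libraries did, and the groups did not overlap. Among complex I genes, mt-Nd1 had a log2 fold change of -1.39 and mt-Nd4l of -1.79, beside -0.34 for Ndufb6. Among complex IV genes, mt-Co1 had -1.13, mt-Co2 -1.83 and mt-Co3 -1.82, beside -0.45 for Cox6c and 0.33 for Ndufa4. The genes of a complex differed widely in reads. On average mt-Co2 had 2881 and mt-Co3 1989.5 reads per library, against 757911 for mt-Co1. In complex I, mt-Nd4l had 174.5 reads, against 129667 for mt-Nd1. Nuclear transcripts at least 95% identical over at least 100 bases were annotated for 9 of the 13, all but mt-Nd1, mt-Nd6, mt-Cytb and mt-Atp8. The rows of these copies averaged 3.0 reads or fewer, and how reads matching both places were counted is not stated, so the 9 counts are uncertain. Of the genes without such a copy, mt-Nd1 had -1.39, mt-Nd6 -1.51 and mt-Cytb -1.50. The lowest value, that of mt-Atp8, came from 37 and 14 reads in BrQ and 54 and 493 reads in Vehicle libraries, and without Vehicle 3 it was -1.28 and not called.

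**Figure D3:**
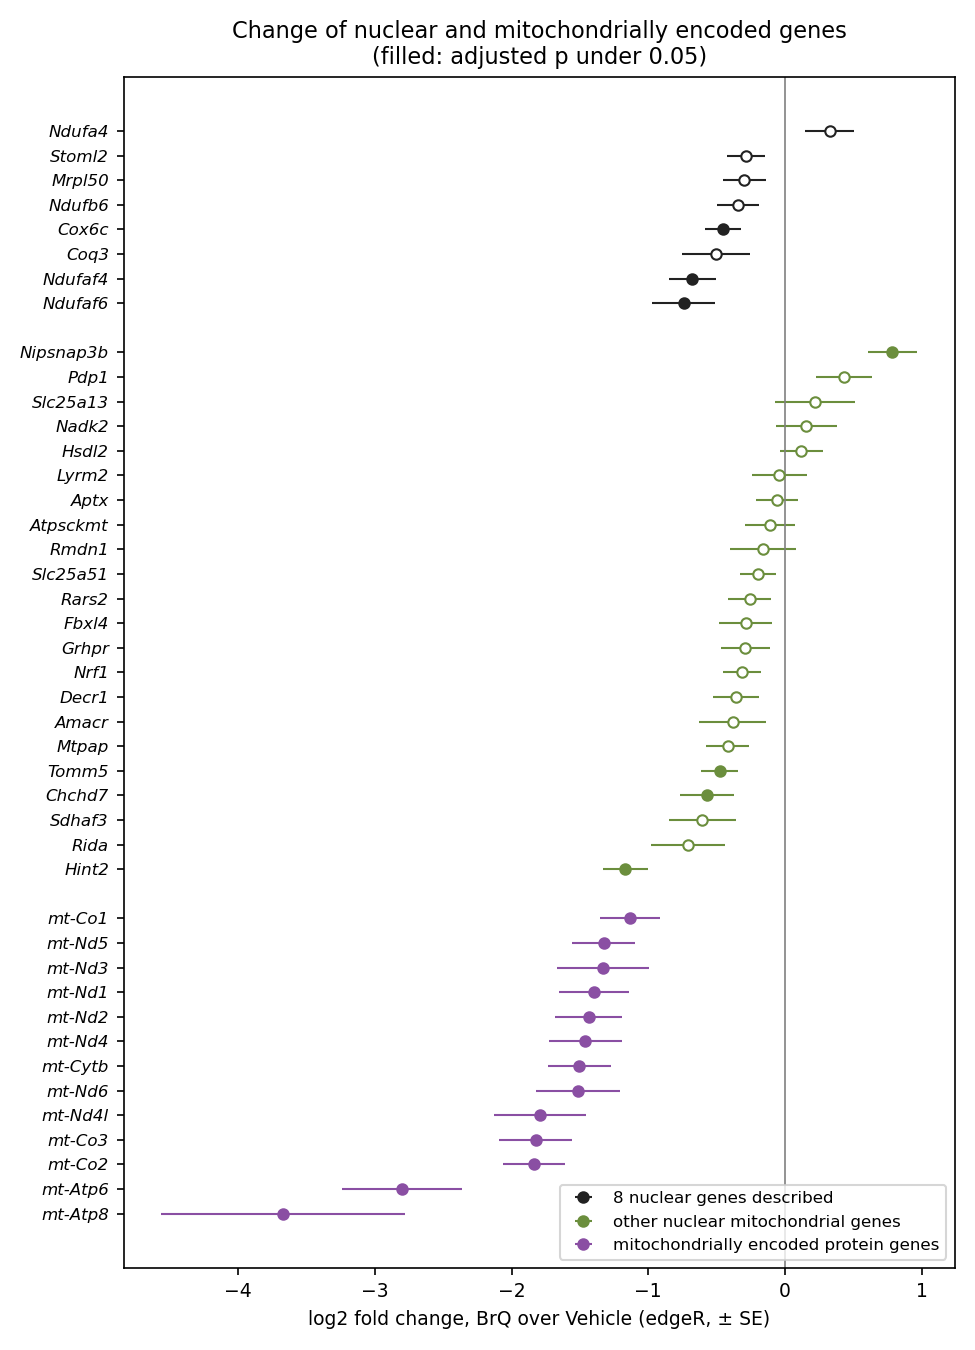
Log2 fold change (BrQ over Vehicle, edgeR, ± SE) of the 8 nuclear genes, 22 other nuclear genes tied to mitochondria and 13 mitochondrially encoded protein genes. Filled points passed an adjusted p of 0.05. The 13 mitochondrially encoded genes lie at -1.13 or lower and the 8 nuclear genes at -0.74 or higher. Among the other nuclear genes Hint2 lies at -1.17, below mt-Co1.

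Ratios within a library do not depend on scaling between libraries, and they are given as values with no test. For each read of the 8 nuclear genes there were 136 and 110 reads of the 13 mitochondrially encoded protein genes in BrQ libraries, against 183 and 322 in Vehicle libraries. On the log2 scale the nuclear to mitochondrial ratio was -7.09 and -6.78 in BrQ, against -7.51 and -8.33 in Vehicle, a mean difference of 0.99. Without mt-Co1, mt-Co2, mt-Co3, mt-Atp6 and mt-Atp8 the difference was 1.15, and without Cox6c it was 1.07.

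For complexes I and IV, the nuclear genes stood higher against the mitochondrially encoded genes of their complex in BrQ in the 3 ratios computed. The log2 ratio of Ndufb6 to the 7 mt-Nd genes was -8.55 and -8.26 in BrQ, against -9.02 and -9.82 in Vehicle. That of Cox6c to the 3 mt-Co genes was -8.17 and -7.98 in BrQ, against -8.35 and -9.09 in Vehicle. The gap was widest for Ndufa4 against the mt-Co genes, at -8.09 and -7.83 in BrQ and -8.78 and -10.04 in Vehicle. These ratios share denominators, so they are not independent of each other. The ribosomal ratio of Mrpl50 to mt-Rnr1 and mt-Rnr2 overlapped, at -6.16 and -5.58 in BrQ and -5.94 and -6.89 in Vehicle.

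Within complex IV the balance of the 2 nuclear genes also differed, a ratio chosen after its values were seen. There were 1.06 and 1.11 Ndufa4 reads per Cox6c read in BrQ libraries, against 0.745 and 0.517 in Vehicle libraries. These are read ratios, not levels: per kilobase, Ndufa4 was above Cox6c in all 4 libraries. In the Vehicle libraries that order rests on the annotated exon lengths, 1.381 kb for Ndufa4 and 3.567 kb for Cox6c. For complex I, Ndufaf4 reads per Ndufb6 read were 0.707 and 0.823 in BrQ, against 0.845 and 1.07 in Vehicle.

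**Figure D4:**
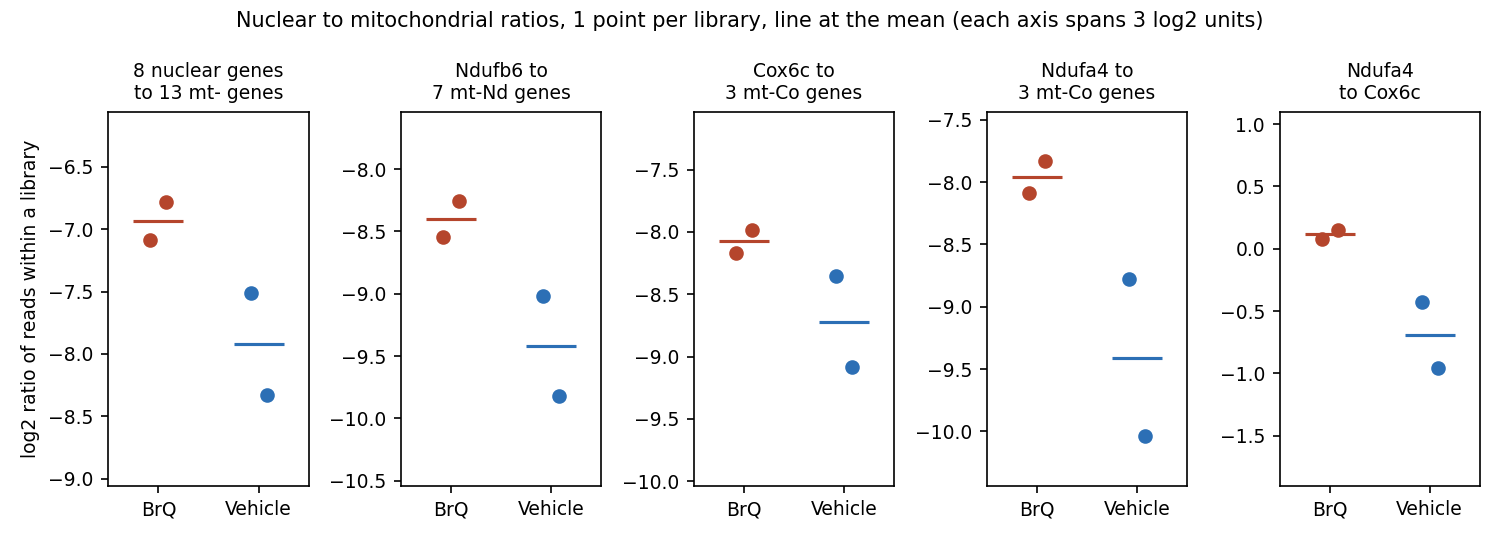
Log2 ratio of reads within each library, 1 point per library with a line at the group mean, for the 8 nuclear genes to the 13 mitochondrially encoded genes, 3 pairs within complexes I and IV, and Ndufa4 to Cox6c. Each axis spans 3 log2 units. BrQ lies above Vehicle in all 5 panels, by a mean of 0.64 (Cox6c to mt-Co) to 1.45 (Ndufa4 to mt-Co). Vehicle 3 is the lowest library in each panel, and Vehicle 1 lies nearer to BrQ. For Cox6c to mt-Co, Vehicle 1 stands at -8.35 and BrQ 1 at -8.17.

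A list of 24 other nuclear genes tied to mitochondria, from the same stretches and chromosome 18, was set beside the 8. Of these, 22 were tested, while Pdk4 and Agxt2 had 15 reads or fewer in every library. In BrQ 3 fell, 1 rose and 18 did not pass, so 18.2% were called, below the 45.7% of all features. Their median log2 fold change was -0.27, with 17 values below 0 and 5 above. Hint2, a mitochondrial nucleotide-hydrolysing enzyme, had 34.7 and 36.6 CPM in BrQ, against 78.6 and 81.8 CPM in Vehicle. Its log2 fold change was -1.17 ± 0.17 (SE; adjusted p = 0.000621, edgeR), and the call was kept in all 14 alternatives. Hint2 has 32 tested neighbours within 1 Mb, of which 19 were also lower in BrQ; their part in its value was not tested.

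Tomm5, a small subunit of the outer membrane import channel, fell (log2 fold change -0.48, adjusted p = 0.0174, edgeR). Chchd7, a small protein with paired cysteine motifs, fell as well (-0.57, adjusted p = 0.0372, edgeR). The Chchd7 call was lost without BrQ 3 or Vehicle 3 and with the replicate number as a block (adjusted p = 0.0540, edgeR), that of Tomm5 without either BrQ library, and both with library size alone. Nipsnap3b, of the NIPSNAP family, rose to 104 and 111 CPM in BrQ, against 71.6 and 53.2 CPM in Vehicle. Its log2 fold change was 0.78 (adjusted p = 0.00668, edgeR), and the call was lost without BrQ 3. Nrf1, a transcription factor of many nuclear respiratory genes, had a log2 fold change of -0.32 (adjusted p = 0.0872, edgeR), with 187 and 204 CPM in BrQ against 233 and 253 CPM in Vehicle. Mtpap, which adds poly(A) to mitochondrial transcripts, had -0.42 (adjusted p = 0.0517), and Sdhaf3, an assembly factor of complex II, had -0.61 (adjusted p = 0.0661). Lyrm2, a matrix protein of the LYR family, had -0.04 (adjusted p = 0.879).

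Patterns over the 4 libraries were compared by Euclidean distance between centred log2 CPM values, among 42 candidates. Cox6c lay nearest to Tomm5 (0.093) and Ndufb6 nearest to Grhpr (0.056). Stoml2 lay nearest to Rars2 (0.062), Mrpl50 to Nrf1 (0.068), Coq3 to Chchd7 (0.166) and Ndufaf6 to Sdhaf3 (0.198). Ndufaf4 was farther from its nearest, Tomm5 (0.281), and Ndufa4 had no close match, with Hsdl2 at 0.450. With 4 libraries these distances are a description.

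Of 5 lymphocyte markers, 4 passed the test, 3 lower and 1 higher in BrQ. The summed level of the 5 markers was 2754 and 2881 CPM in BrQ, against 4259 and 4460 CPM in Vehicle. Most of that gap came from Cd72, with 1041 and 1026 CPM in BrQ against 2017 and 2136 CPM in Vehicle. Cd72 (log2 fold change -1.01, adjusted p = 0.000285, edgeR), Il7r (-0.61, 0.00616) and Sit1 (-0.78, 0.00362) fell, Tox rose (0.72, 0.00682) and Pax5 did not pass (-0.22, adjusted p = 0.155, edgeR). Col1a2, a collagen gene of stromal cells, also fell, with 13.6 and 11.5 CPM in BrQ against 17.9 and 25.5 CPM in Vehicle (log2 fold change -0.78, adjusted p = 0.0352, edgeR). Muscle Tpm2 (-0.56, adjusted p = 0.353) and erythroid Hemgn (-0.48, adjusted p = 0.439, edgeR) did not pass. The other markers of these lists were too low to test. Among them, stromal Ccl19 went the other way from Col1a2, with 27 and 8 reads in BrQ libraries against 5 and 0 in Vehicle libraries. The stromal sum below is mostly Col1a2. Summed stromal markers stood at 17.1 and 12.5 CPM in BrQ and 18.6 and 25.5 CPM in Vehicle, muscle markers at 2.53 and 4.39 against 6.39 and 3.38, and erythroid markers at 5.94 and 2.06 against 5.23 and 6.14. The part of cell makeup in the values of the 8 genes was not tested.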

How the data were processed

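Total RNA of 4 lymph nodes was sequenced as paired ends, per the labels' protocols. The submitters' processing notes name the mm10 genome, HISAT2 2.1.0, HTSeq 0.11.2 and Trim Galore 0.6.2. No source used here states the annotation release or the strand setting. What the authors deposited are whole-number counts per gene without normalization. The 5 rows that name no gene held 87.04% to 88.985% of read rows and were left out of library sizes and tests. They entered library sizes only under the scaling to all read rows. Low features were removed with filterByExpr, leaving 10223. They were scaled by TMM and tested with edgeR 4.0.16 (glmQLFit, glmQLFTest, R 4.3.3), group as the only factor and Benjamini-Hochberg threshold 0.05. Steps were tested on simulated data. DESeq2 1.42.0, limma 3.58.1 (voom), other scalings and filters, a replicate block and leaving out each library were alternatives. All 8 genes passed the filter.

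Exons and positions came from GENCODE release M21 (GRCm38), copies from blastn 2.17.0 and promoters from RefSeq (GRCm38.p6). Replicate libraries differed beyond sampling noise (chi-square per degree of freedom 12.4 in BrQ and 26.6 in Vehicle). The 8 genes, the lists and the markers were chosen with earlier results of these data known. Named are all 8 genes, the mitochondrially encoded genes, and of the other nuclear list those past the threshold plus Nrf1, Mtpap, Sdhaf3, Lyrm2 and Tomm5. The nearest pattern of each gene and, after their values were seen, Pdk4, Agxt2 and Ndufa4 to Cox6c are also given.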

Additional observations from a re-analysis of the deposited data

Results flagged for a closer look

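The share of read rows that fell in no gene interval was higher in the BrQ libraries (88.556% and 88.812%) than in the Vehicle libraries (87.756% and 86.799%). These rows enter comparisons of genes only where library sizes were taken from all read rows. The mean difference was 1.406 percentage points and the groups did not overlap. It was not tested, and its part in the values of the 8 genes was not tested.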

How the results depend on the processing

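Calls of the 8 genes were sensitive to the libraries and to scaling. From 3 called, the count was 1 with library size alone, 0 without a low count filter (3 at an unadjusted p under 0.05, edgeR) and 0 to 3 with 1 library left out (lowest without BrQ 3, where 1 had an unadjusted p under 0.05). It was 3 with RLE factors, DESeq2 and limma voom, and 2 with all read rows. Leave-one-out fits assume that the lone library varies like the other group. The count of all features called, 4676, was 2481 without a filter and 2031 to 4376 with 1 library left out, lowest without BrQ 3. Other nuclear genes called, 4, were 1 without a filter and 1 to 7 with 1 library left out; mitochondrially encoded ones, 13, were 6 without a filter and 9 to 13 with 1 left out. The split of higher and lower features, 2409 and 2267, was 3607 and 1072 with library size alone and 3060 and 1587 with all read rows. Signs reversed with library size alone for Ndufb6 (0.028), Stoml2 (0.084), Mrpl50 (0.075), Nrf1 (0.059) and Lyrm2 (0.323), and for Lyrm2 with all read rows (0.165), and between -0.228 and 0.143 with 1 library left out (0.143 without BrQ 3, 0.034 without Vehicle 1). The cause was not tested.

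The deviations of same-numbered libraries from their group means had a correlation of -0.12. With so few libraries per group, this value cannot show whether same-numbered libraries were paired. With the replicate block 4190 features, 3 of the 8 genes, 4 other nuclear (Chchd7 lost, Rida gained) and 13 mitochondrially encoded genes were called. With the crossed replicate block, chosen after seeing the data, the counts were 5284, 5, 7 and 13. The legacy quasi-likelihood fit, also chosen after seeing the data, called 3 of the 8.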

Other observations

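Features named for genes around the 8 did not all move with them. Around Ndufaf6, which fell, 6 of 12 tested neighbours within 1 Mb were higher in BrQ and 1 was lower, with a median log2 fold change of 0.55. Around Ndufb6, 3 of 15 were higher and 5 lower, with a median of -0.06. Around Mrpl50, none of 4 tested was called (edgeR), and around Cox6c 2 of 8 were higher and 1 lower. Over all 8 genes, 14 of 75 tested neighbours were higher and 30 lower, 19 of the lower ones around Stoml2.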
